A study of Mus musculus with 4 samples.

Results

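The genes described here encode proteins that recognise foreign RNA or DNA inside cells, together with the adaptors that relay their signal: Ddx58, Ifih1, Dhx58, Mavs, Eif2ak2, Tlr3, Tlr7, Tlr9, Myd88 and Zbp1. They were listed as the sensors and adaptors that could detect an injected small interfering RNA (siRNA), with earlier results of these data known. They were found on the array through the RefSeq accession of each probe. All 10 genes were found, by 14 of 41174 probes, and all 10 were among the 25095 genes tested. Each of the 14 probes was well above background in both channels of every array, so the filter on dim probes removed none of them. Each array compared liver RNA pooled from female CD-1 mice, an outbred stock, that had received Cux2 siRNA with liver RNA pooled from mice that had received a non-specific siRNA. The treated mice were killed 8 days after the siRNA (pools of 2 mice each) or 5 days after it (pools of 3 mice in replicate 1 and 2 mice in replicate 2). The series description counts 13 control mice in pools of 6 or 7, and the sample descriptions give 6 for each array. All mice were 8 weeks old. Neither the day on which control mice were killed nor the control pool used on each array is stated. The treated RNA was labelled with Alexa 647 on the replicate 1 arrays and with Alexa 555 on the replicate 2 arrays. Both sides of every ratio came from mice given an siRNA, so a ratio sets one siRNA against another and says nothing of mice given none.

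Cytosolic sensing of RNA rests on the RIG-I-like receptors, a family of helicases. Ddx58 (RIG-I) binds short double-stranded RNA with phosphorylated ends, Ifih1 (MDA5) binds long double-stranded RNA, and Dhx58 (LGP2) lacks the signalling domains of both and modulates them. Ddx58 and Ifih1 signal through Mavs, an adaptor on the mitochondrial surface, to the transcription factors that switch on interferon genes. In endosomes Tlr3 detects double-stranded RNA, Tlr7 single-stranded RNA and Tlr9 unmethylated DNA, and Myd88 is the adaptor of Tlr7 and Tlr9 but not of Tlr3. Eif2ak2 (PKR) is a kinase that halts translation when it binds double-stranded RNA, and Zbp1 recognises left-handed Z-form nucleic acids. Several of these genes are themselves induced by interferon, and in liver they are used by hepatocytes as well as by macrophages, endothelial cells and dendritic cells.

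A sequence feature that the choice of genes did not use is the interferon-stimulated response element, a promoter motif bound by interferon-activated factors, searched here on both strands as GAAA, any 2 bases and GAAA again. RefSeq promoters of GRCm38.p6, which run from 250 bases before to 50 bases after the start of transcription, were at hand for 7 of the 10 genes (Ddx58, Ifih1, Mavs, Eif2ak2, Tlr3, Tlr9 and Myd88). The motif was in 4 of these 7, and in 3.44% of all 32851 promoters of that length. Of the matches, 3 belong to genes that were lower after Cux2 siRNA and 1 to an adaptor that did not pass the test. Tlr3 and Tlr9, which were also lower, and Mavs, which did not pass, had no match. Dhx58, Tlr7 and Zbp1, lower as well, had no promoter to search. A link between the motif and the ratios was not tested. The 30 bases around each match are shown 5′ to 3′ in the direction of the gene, with the match in capitals.
Ddx58, chr4:40239804-40239833, minus strand: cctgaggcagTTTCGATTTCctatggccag
Ifih1, chr2:62646206-62646235, minus strand: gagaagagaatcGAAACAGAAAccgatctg
Eif2ak2, chr17:78882535-78882564, minus strand: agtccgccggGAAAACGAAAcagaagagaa
Myd88, chr9:119340039-119340068, minus strand: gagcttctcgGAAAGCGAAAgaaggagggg
The Ddx58 match lies on the opposite strand, where it reads GAAATCGAAA. Counted from the start of transcription, it covers positions 3 to 12, the Ifih1 match 33 to 42 and the Eif2ak2 match 19 to 28, while the Myd88 match lies before the start, at -40 to -31. A second motif, TTCNNNGAA, bound by activated STAT factors, was in the promoters of Eif2ak2 and Myd88 and in 8.3% of all promoters. In Myd88 it shared bases with the first match. These are matches of letters and not measured binding.

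Each ratio is the log2 of Cux2 siRNA over non-specific siRNA, so that negative values are lower after Cux2 siRNA. Standard errors (SE) come from a single limma fit to the 4 arrays, and a gene passed when its p, adjusted by Benjamini-Hochberg over all 25095 genes, was under 0.05. Each day had 2 treated pools, so a p-value reflects differences among pools and between dye orientations, and not among single mice. By the series description, 13 control mice in pools of 6 or 7 are too few for a separate control pool on each array. Control pools therefore recurred, and the 4 ratios are not fully independent, though the fit treats them so. Values of the 4 arrays are given in the order day 8 replicates 1 and 2, then day 5 replicates 1 and 2. Intensities were normalized within arrays only, so those of different arrays are not on a common scale. Setting them side by side mixes array and dye with treatment. Cux2 itself, a homeobox transcription factor and the target of the siRNA, had ratios of -1.07, -1.20, -1.91 and -1.70. The hepatocyte genes Alb, Apoa1, Ttr and Tat were well above background in both channels of all 4 arrays. The share of probes well above background ranged from 71.1% to 74.6% over the 8 channels, and saturation affected none. RNA came from whole liver, so a lower ratio of a gene used by a minor cell type does not separate fewer such cells from less RNA per cell.

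At day 8, 5 of the 10 genes fell and none rose, while of all genes 14.3% passed, 8.06% by a fall and 6.28% by a rise. At day 5, 6 of the 10 fell and none rose, while of all genes 16.8% passed, 9.42% by a fall and 7.38% by a rise. Over both days together 8 of the 10 fell and none rose, and only the adaptors Mavs and Myd88 did not pass. Of all genes 31.1% passed over both days, 16.3% by a fall and 14.8% by a rise. Because the 10 genes were chosen with earlier results of these data known, setting them against these shares is no independent test. The median of the 10 mean ratios was -0.87 over both days, and that of all genes was 0.0032. The ratio was below 0 on all 4 arrays for 8 of the 10 genes, as it was for 26.0% of all genes. The ratio of replicate 2 was below that of replicate 1 on both days for 7 of the 10, as it was for 34.2% of all genes. Fewer of the 10 passed over both days when any array was left out, and fewer of all genes did too. The same held on a day when an array of that day was left out, which leaves 1 array on it.

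**Figure D1:**
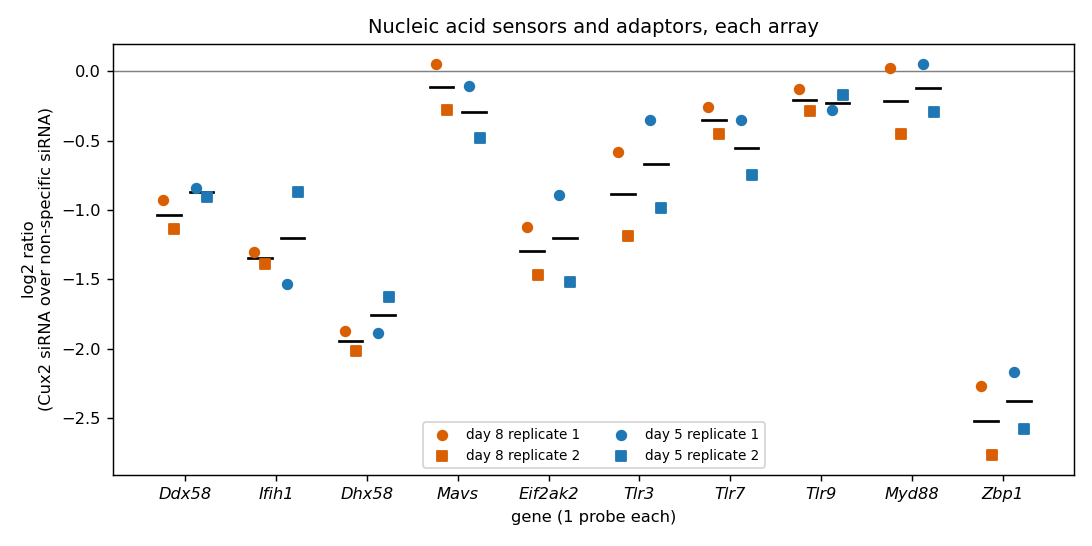
Log2 ratio of Cux2 siRNA over non-specific siRNA (vertical axis) for each of the 10 genes, with a point per array, coloured by day and shaped by replicate, and a bar at the mean of each day. Zbp1 is lowest, between -2.77 and -2.17, and Mavs and Myd88 are the genes with points on both sides of 0.

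Zbp1 had the largest fall of the 10 genes. Its normalized intensity at day 8 was 1809 and 2341 in the Cux2 siRNA pools, against 8733 and 15954 in the control pools of the same arrays. At day 5 it was 1955 and 2536 in the Cux2 siRNA pools, against 8808 and 15173 in the control pools. On every array the treated value lay far below the control value, and the ratios were -2.27, -2.77, -2.17 and -2.58. The mean was -2.52 at day 8 (SE 0.16, adjusted p = 0.00545), -2.38 at day 5 (SE 0.16, limma adjusted p = 0.00512) and -2.45 over both days (SE 0.11, adjusted p = 0.00107). Zbp1 in the treated livers was thus at 18.3% of the control level, and it ranked 80th from the lowest of the 25095 genes. Cell death through Zbp1 runs by way of the kinase Ripk3 and its substrate Mlkl, a membrane-permeabilising protein. Mlkl fell by 1.4 (SE 0.09, adjusted p = 0.00185). Ripk3, named for its role after its values were seen, fell by 0.81 (SE 0.07, adjusted p = 0.00329). Ripk1, a kinase of the same list and also named after its values were seen, did not pass (-0.24, SE 0.08, adjusted p = 0.0751).

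All 3 RIG-I-like helicases fell on each day, and Dhx58, the modulator without signalling domains, fell furthest. Its intensity at day 8 was 1024 and 447 in the Cux2 siRNA pools, against 3751 and 1810 in the control pools, and at day 5 it was 993 and 1422 in the Cux2 siRNA pools, against 3678 and 4388 in the control pools. Both channels of day 8 replicate 2 were dim for this probe, yet its ratio of -2.02 lay beside those of the other arrays, -1.87 on day 8 replicate 1 and -1.89 and -1.63 at day 5. The mean of Dhx58 was -1.95 at day 8 (SE 0.09, adjusted p = 0.00327), -1.76 at day 5 (SE 0.09, adjusted p = 0.00382) and -1.85 over both days (SE 0.07, adjusted p = 0.000773), which is 27.7% of the control level.

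Ifih1, the sensor of long double-stranded RNA, had intensities of 7063 and 6745 in the Cux2 siRNA pools at day 8, against 17446 and 17712 in the control pools. At day 5 they were 5796 and 9274 in the Cux2 siRNA pools, against 16787 and 16978 in the control pools. Without scaling between arrays, the control values were close to each other on all 4 arrays. The treated values were the ones that varied, with day 5 replicate 2 the highest. The ratios were -1.30, -1.39, -1.53 and -0.87. Their mean was -1.35 at day 8 (SE 0.17, adjusted p = 0.0149), -1.20 at day 5 (SE 0.17, adjusted p = 0.0161) and -1.28 over both days (SE 0.12, adjusted p = 0.00335), or 41.3% of the control level. At day 8 Ifih1 no longer passed when either array of that day was left out (adjusted p = 0.07 without replicate 1 and 0.112 without replicate 2).

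Ddx58, the sensor of short double-stranded RNA with phosphorylated ends, had the closest agreement among the arrays of the 3 helicases. Its ratios were -0.93, -1.14, -0.84 and -0.90. The intensities were 663, 758, 738 and 863 in the Cux2 siRNA pools, against 1265, 1669, 1324 and 1614 in the control pools. On every array the treated value lay below the control value. Ddx58 had a mean of -1.04 at day 8 (SE 0.08, adjusted p = 0.00739), of -0.87 at day 5 (SE 0.08, adjusted p = 0.00815) and of -0.95 over both days (SE 0.06, adjusted p = 0.00161), or 51.6% of the control level. With 1 array left on a day the gene did not pass on that day in 3 of the 4 cases. Its adjusted p at day 8 was 0.0639 when day 8 replicate 2 was left out, and at day 5 it was 0.0512 when day 5 replicate 1 was left out and 0.0812 when day 5 replicate 2 was.

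Mavs, the adaptor through which Ddx58 and Ifih1 signal, had ratios of 0.055, -0.28, -0.11 and -0.48. Its intensity was 2185, 2476, 2317 and 1993 in the Cux2 siRNA pools, against 2102, 3010, 2498 and 2786 in the control pools. The order of the channels was turned on day 8 replicate 1. The mean over both days was -0.20 (95% interval -0.45 to 0.04, adjusted p = 0.169), which did not pass.

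**Figure D2:**
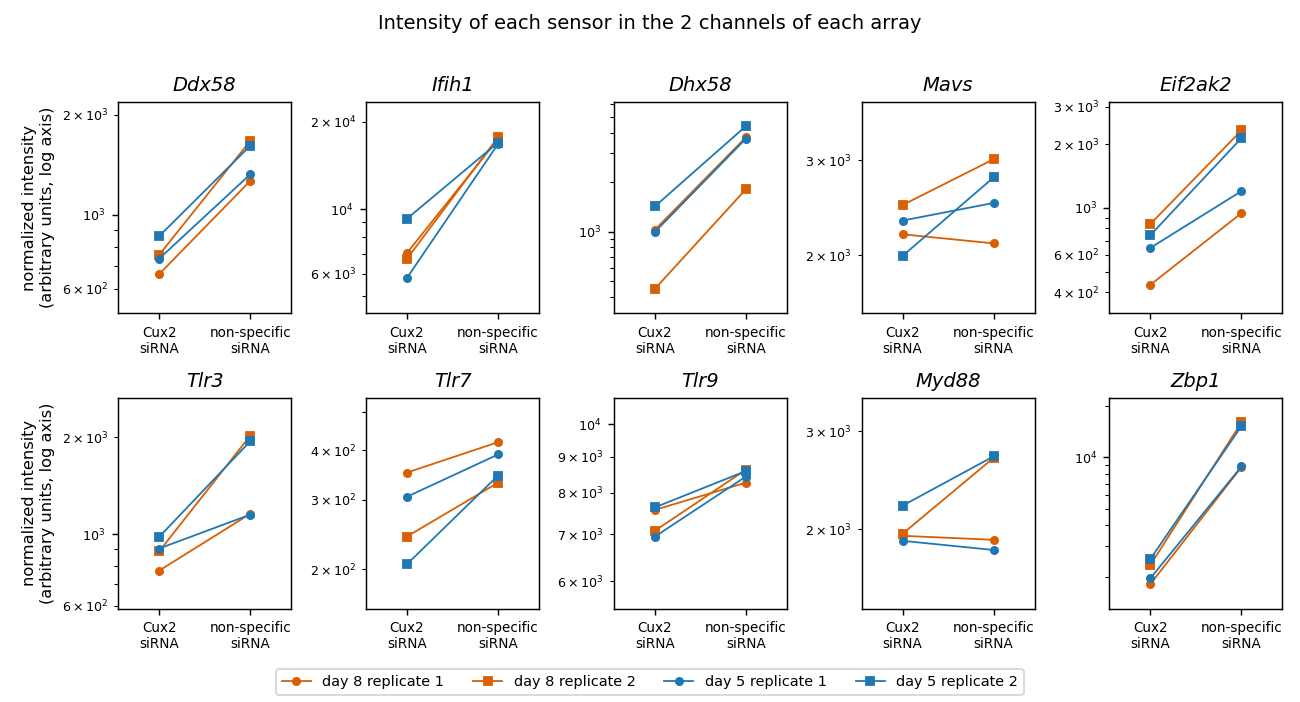
Background-corrected, loess-normalized intensity of each gene's probe (log axis, arbitrary units), with Cux2 siRNA on the left and non-specific siRNA on the right of each panel, and a line joining the 2 channels of an array. The lines run upward to the control channel on every array for all genes but Mavs and Myd88. The intensities are not scaled between arrays. As plotted, the control value on each day is higher on the replicate 2 array for all genes but Dhx58 and Tlr7, though by little for Ifih1 and Tlr9. On a common scale between arrays the control values of Ifih1 and Tlr9 were slightly lower in replicate 2 on both days.

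Eif2ak2, the kinase that stops translation on binding double-stranded RNA, fell on both days. Its intensity was 434, 840, 648 and 744 in the Cux2 siRNA pools, against 945, 2322, 1200 and 2135 in the control pools. The ratios were -1.12, -1.47, -0.89 and -1.52, so the replicate 2 array was the lower on each day. Its mean was -1.29 at day 8 (SE 0.18, adjusted p = 0.0179), -1.21 at day 5 (SE 0.18, adjusted p = 0.0184) and -1.25 over both days (SE 0.12, adjusted p = 0.00395), or 42.0% of the control level. Eif2ak2 did not pass at day 8 with replicate 1 (adjusted p = 0.0629) or replicate 2 (0.133) of that day left out, nor at day 5 with replicate 2 of that day left out (0.0989).

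By the probe that stood for each gene, the endosomal receptors had mean ratios nearer to 0 than the cytosolic sensors. These classes were not compared by a test, and another Ddx58 probe, at -0.73, was nearer to 0 than Tlr3. Tlr3, the receptor for double-stranded RNA, had ratios of -0.58, -1.19, -0.35 and -0.98. Its intensity was 772, 886, 904 and 982 in the Cux2 siRNA pools, against 1158, 2022, 1151 and 1943 in the control pools. Without scaling between arrays, the control values form a low pair in replicate 1 and a high pair in replicate 2, whereas the treated values lie close together. Neither day passed by itself, with means of -0.89 at day 8 and -0.67 at day 5 (SE 0.21, adjusted p of 0.0585 and 0.101 in that order). Over both days Tlr3 fell by 0.78 (SE 0.15, adjusted p = 0.02). That fall did not pass with either replicate 2 array left out (adjusted p = 0.0617 for the array of day 8 and 0.0608 for that of day 5).

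Tlr7, the single-stranded RNA receptor, had intensities of 351, 242, 305 and 206 in the Cux2 siRNA pools, against 419, 331, 390 and 345 in the control pools. Its ratios were -0.26, -0.45, -0.35 and -0.75. Every array showed the same direction. The intensities of the groups overlapped between arrays, which are not on a common scale. At day 8 it had a mean of -0.35 (SE 0.12, adjusted p = 0.124), while Tlr7 fell at day 5 (-0.55, SE 0.12, adjusted p = 0.0429) and over both days (-0.45, SE 0.08, adjusted p = 0.0184). Leaving out any of the 4 arrays ended the day 5 call (adjusted p = 0.0588 for either array of day 8, and 0.0677 and 0.253 for day 5 replicates 1 and 2). The call over both days ended when day 8 replicate 2 (0.0757) or day 5 replicate 2 (0.0586) was left out. Without background subtraction the mean over both days was -0.23, a smaller fall that still passed.

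Tlr9, the receptor for unmethylated DNA, had the smallest change of those that passed. Its intensity was 7572, 7072, 6940 and 7633 in the Cux2 siRNA pools, against 8272, 8630, 8438 and 8591 in the control pools. On every array the treated value lay below the control value, although the distance was small, with ratios of -0.13, -0.29, -0.28 and -0.17. Tlr9 fell by 0.22 over both days (SE 0.06, adjusted p = 0.0426) and passed on neither day by itself (adjusted p = 0.156 at day 8 and 0.122 at day 5). The call was lost when any array was left out (adjusted p = 0.0749 and 0.175 for day 8 replicates 1 and 2, and 0.175 and 0.113 for day 5 replicates 1 and 2).

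Myd88, the adaptor of Tlr7 and Tlr9, had ratios of 0.024, -0.45, 0.054 and -0.29. Its intensity was 1948, 1965, 1908 and 2207 in the Cux2 siRNA pools, against 1916, 2690, 1837 and 2706 in the control pools. The replicate 1 arrays lay just above 0 and the replicate 2 arrays below it. Its mean over both days was -0.17 (95% interval -0.44 to 0.11, adjusted p = 0.302).

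In order from the lowest mean ratio over both days the genes were Zbp1, Dhx58, Ifih1, Eif2ak2, Ddx58, Tlr3, Tlr7, Tlr9, Mavs and Myd88. The 95% interval of Zbp1 ran from -2.74 to -2.15 and that of Dhx58 from -2.03 to -1.68, so these did not meet each other or the interval of any other of the 10 genes. The intervals of Ifih1 (-1.58 to -0.97), Eif2ak2 (-1.58 to -0.92) and Ddx58 (-1.10 to -0.80) overlapped, as did those of Ddx58 and Tlr3 (-1.17 to -0.39), of Tlr3 and Tlr7 (-0.67 to -0.23), and those of Tlr7, Tlr9, Mavs and Myd88. With median centring of each array in place of loess, the mean ratios of the 10 genes moved by little and the fit called only Dhx58 (-1.88, adjusted p = 0.0264) and Zbp1 (-2.49, adjusted p = 0.0391) over both days. The means of Ddx58 (-0.98, adjusted p = 0.0985), Ifih1 (-1.30, 0.0607), Eif2ak2 (-1.29, 0.11), Tlr3 (-0.81, 0.284), Tlr7 (-0.44, 0.384) and Tlr9 (-0.24, 0.737) did not pass in that version, nor did any of the 10 on a single day. Of all 25095 genes, 269 passed over both days in that version, 3 at day 8 and 5 at day 5, so calls were lost by genes at large.

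Several probes measured 3 of the genes. The 3 Ddx58 probes had mean ratios over the 4 arrays of -0.95 ± 0.13, -0.97 ± 0.18 and -0.73 ± 0.13 (SD, n = 4 arrays). The last of these moved to -0.36 without background subtraction and to -0.92 with the scanner's processed signals. The 2 Ifih1 probes averaged -1.28 ± 0.29 and -1.13 ± 0.29, but disagreed on which array was highest: the second was highest on day 8 replicate 2 (-0.74) and the first on day 5 replicate 2 (-0.87). The 2 Tlr3 probes averaged -0.78 ± 0.38 and -0.67 ± 0.40 and ranked the arrays alike. All 7 probes were below 0 on every array.

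**Figure D3:**
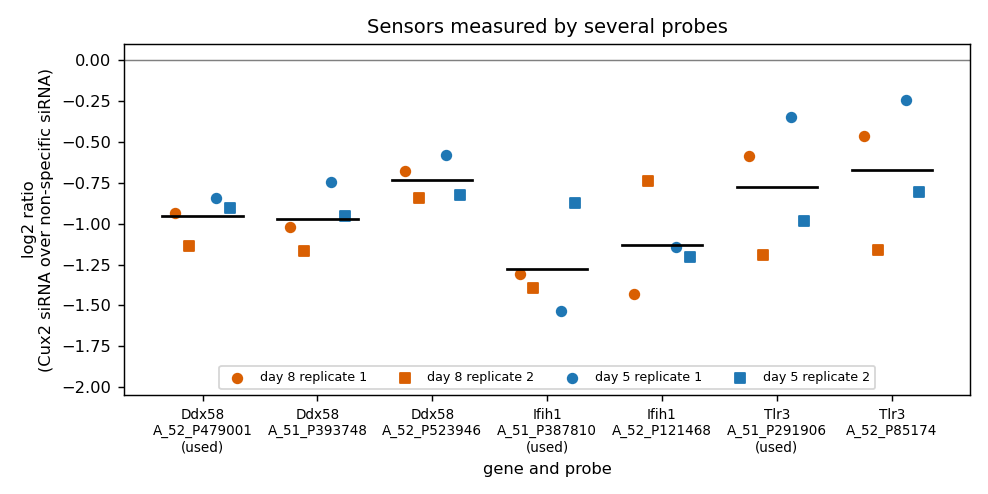
Log2 ratio of Cux2 siRNA over non-specific siRNA on each array (points) for every probe of Ddx58, Ifih1 and Tlr3, with a bar at the mean of the 4 arrays; the probe marked as used stands for its gene in the tests. All points lie below 0, and the Tlr3 probes show the replicate 2 arrays below the replicate 1 arrays of the same day.

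A difference between the days was not detected for any of the 10 genes. The difference, day 8 minus day 5, was -0.16 for Ddx58 (95% interval -0.46 to 0.14), -0.19 for Dhx58 (-0.54 to 0.16) and -0.14 for Zbp1 (-0.74 to 0.45). Of the others Tlr3 had the most negative value, -0.22 (SE 0.30), and Tlr7 the most positive, 0.20 (-0.24 to 0.64). In the limma fit 0 of the 10 genes and 0 of all genes passed (0% of genes; adjusted p = 1.00 for each of the 10), and at an unadjusted p under 0.05 there were 0 of the 10 and 621 of all genes. The intervals of Tlr3, Tlr7 and Tlr9 allow a difference larger than the fall over both days itself, and those of Zbp1 and Dhx58 do not.

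Beside the 10 genes, 53 others of nucleic acid sensing were listed in 6 groups, and 49 of them were tested. These too were chosen with earlier results of these data known. Over both days 22 fell, 2 rose and 25 did not pass, with a median of -0.18, against 16.3% of all genes that fell and 14.8% that rose. At day 8, 16 fell and 1 rose, and at day 5, 17 fell and 1 rose. With median centring in place of loess 3 of the 49 passed over both days, as did 269 of all 25095 genes. In the list of RIG-I-like receptor signalling 6 of 11 fell and none rose (median -0.44). Irf7, the interferon-inducible transcription factor that amplifies interferon production, fell by 2.54 (SE 0.05, adjusted p = 0.000309), with ratios of -2.74, -2.68, -2.45 and -2.30. The ubiquitin ligase Rnf125, a negative regulator of the pathway, fell by 0.81 (SE 0.13, adjusted p = 0.0134). Tbk1, the kinase that activates the interferon-inducing factors, fell by 0.66 (SE 0.07, adjusted p = 0.00409).

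The list of cytosolic DNA sensing and Zbp1 partners fell in 7 of the 8 genes tested (median -1.12). Its largest falls were in Samhd1, which degrades DNA precursors (-2.20, SE 0.17, adjusted p = 0.0024), and Ifi204, a DNA-binding interferon-inducible protein (-2.11, SE 0.09, adjusted p = 0.00106), followed by Mlkl. Among effectors of double-stranded RNA and their regulators 7 of 9 fell (median -1.01). Oasl2, related to the enzymes that make the second messenger of RNase L, fell by 3.73 (SE 0.17, adjusted p = 0.00107), and so did the synthetases Oas1a (-1.80, SE 0.09, adjusted p = 0.00121) and Oas2 (-1.59, SE 0.11, adjusted p = 0.00205).

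In the list of endosomal receptor signalling only Tlr8 fell (-0.21, SE 0.05, adjusted p = 0.03) and only Irak2, a kinase that acts after Myd88, rose (0.37, SE 0.05, adjusted p = 0.00772), while 7 of 9 did not pass and the median was -0.03. The list of RNA interference machinery, which includes processing of microRNA precursors, had a median of -0.07, and 8 of its 9 genes did not pass. Dgcr8, which helps to cut microRNA precursors, rose by 0.25 (SE 0.05, adjusted p = 0.0222). Ago2, the nuclease that cuts siRNA targets and named for that role after its values were seen, had a mean of -0.07 (SE 0.07, adjusted p = 0.549). Of the interferon genes themselves Ifnb1 and Ifna4 were not well above background in any of the 8 channel readings. Of the 3 tested, Ifng fell by 0.35 (SE 0.07, adjusted p = 0.0188), while Ifna2 had a mean of 0.025 (SE 0.05, adjusted p = 0.76) and Ifnl3 of -0.016 (SE 0.05, adjusted p = 0.846). Ifna2 was well above background on 4 arrays in the Cux2 siRNA channel and on 2 in the control channel.

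**Figure D4:**
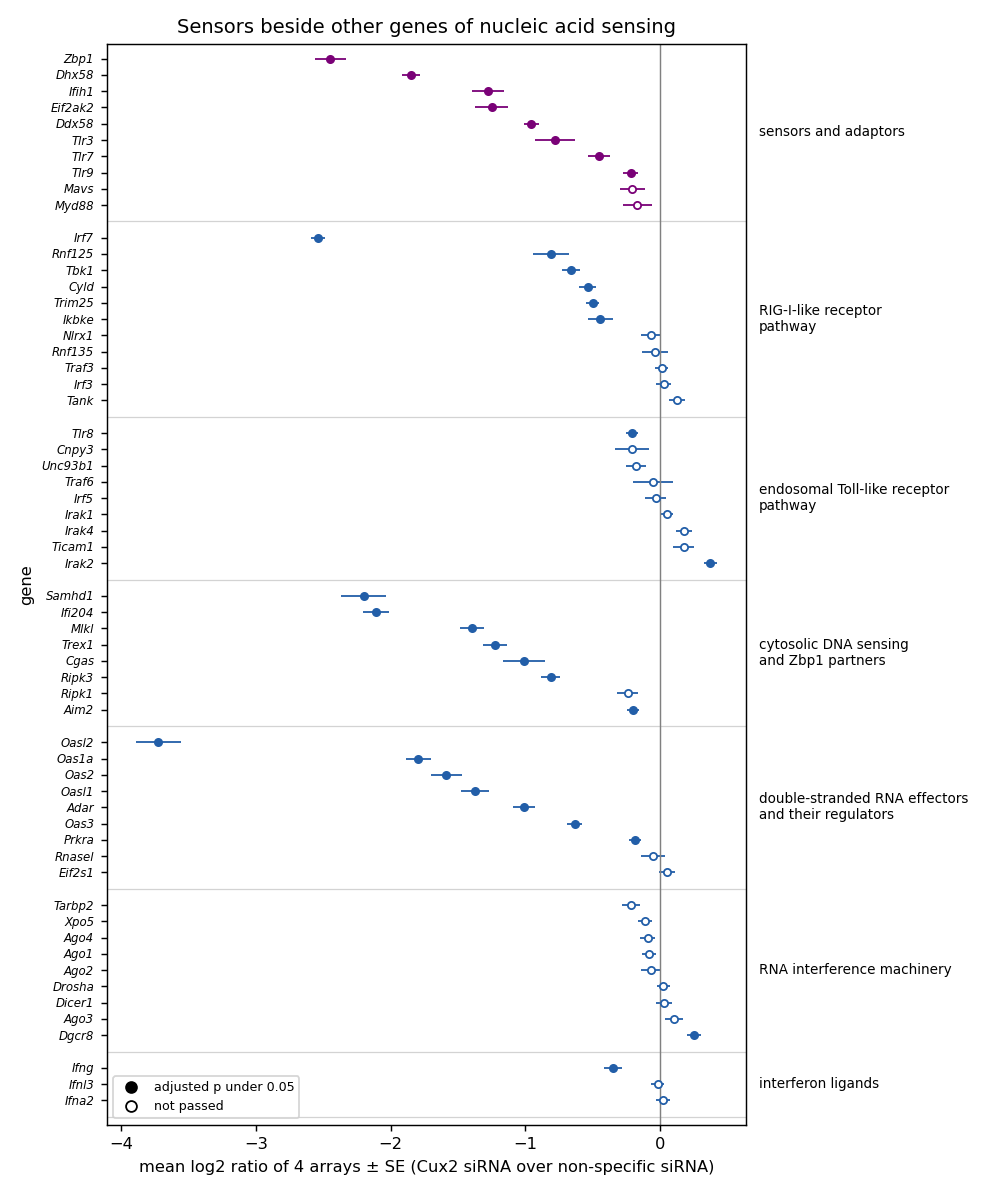
Mean log2 ratio of the 4 arrays with its SE (horizontal axis, Cux2 siRNA over non-specific siRNA) for the 10 sensors and adaptors and for the 49 other genes tested, by list; filled points passed at an adjusted p under 0.05. Falls of more than 1 are found among the sensors, the DNA sensing list, the double-stranded RNA effectors and in Irf7, and none in the endosomal receptor and RNA interference lists.

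Markers of cells that carry these receptors were listed too, again with earlier results of these data known. Over both days 16.3% of all genes fell and 14.8% rose. With 5 genes in a list, 1 or 2 falls cannot be set closely against these shares. Of 8 Kupffer cell and macrophage markers tested 5 fell and none rose, and the median ratio of the list was between -0.84 and -0.34 on the 4 arrays. On each day by itself 3 of the 8 fell. Marco, a scavenger receptor, fell by 2.84 (SE 0.26, adjusted p = 0.0033) and Timd4, a receptor for dying cells, fell by 0.80 (SE 0.16, adjusted p = 0.0236). Of 5 markers of plasmacytoid dendritic cells, which use Tlr7 and Tlr9, 4 fell over both days, and the median was between -0.31 and -0.15 on the 4 arrays. None of the 5 passed at day 8 or at day 5 by itself. Among these Cox6a2, also a muscle gene, fell by 2.04 (SE 0.36, adjusted p = 0.0161) and Pacsin1 fell by 0.38 (SE 0.08, adjusted p = 0.0251). The part of these cells in the ratios of Tlr7, Tlr9 and the other sensors was not tested.

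The lists of the other cell types differed from each other. None of 4 conventional dendritic cell markers passed (median -0.04), and of 5 B cell markers Cd79b rose by 0.21 (SE 0.05, adjusted p = 0.0356) and Cd22 fell by 0.19 (SE 0.05, adjusted p = 0.0365). Of 5 T and NK cell markers 2 fell and none rose, with Gzma at -1.30 (SE 0.20, adjusted p = 0.0106) and Nkg7 at -0.52 (SE 0.07, adjusted p = 0.00704). Of 6 neutrophil markers 4 fell and none rose (median -0.59), and 4 fell on each day by itself. Among them were S100a9 at -2.50 (SE 0.25, adjusted p = 0.00398) and S100a8 at -2.41 (SE 0.22, adjusted p = 0.00338). Endothelial markers fell in 2 of 5 and rose in 1, too few genes to set against the shares of all genes, and none passed on a single day. Pecam1 fell by 0.31 (SE 0.06, adjusted p = 0.0231) and Lyve1 fell by 0.29 (SE 0.07, adjusted p = 0.0391). Kdr rose by 0.27 (SE 0.07, adjusted p = 0.0466), and the median of the list was -0.08. Of 5 stellate cell markers 3 fell and 2 rose, with Col1a1 at -1.46 (SE 0.18, adjusted p = 0.00652) and Reln at 0.91 (SE 0.09, adjusted p = 0.00418). Of 4 hepatocyte markers only Ttr passed, with a fall of 0.27 (SE 0.05, adjusted p = 0.0172), and Apoa1 had a mean of 0.18 (SE 0.07, adjusted p = 0.118). The median of the hepatocyte list was 0.35, -0.27, 0.17 and -0.20 on the 4 arrays, and that of the 10 sensors and adaptors was -0.76, -1.16, -0.60 and -0.89. Both lists were lower on the replicate 2 array of each day, and the part of dye and pool in these ratios was not tested.

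**Figure D5:**
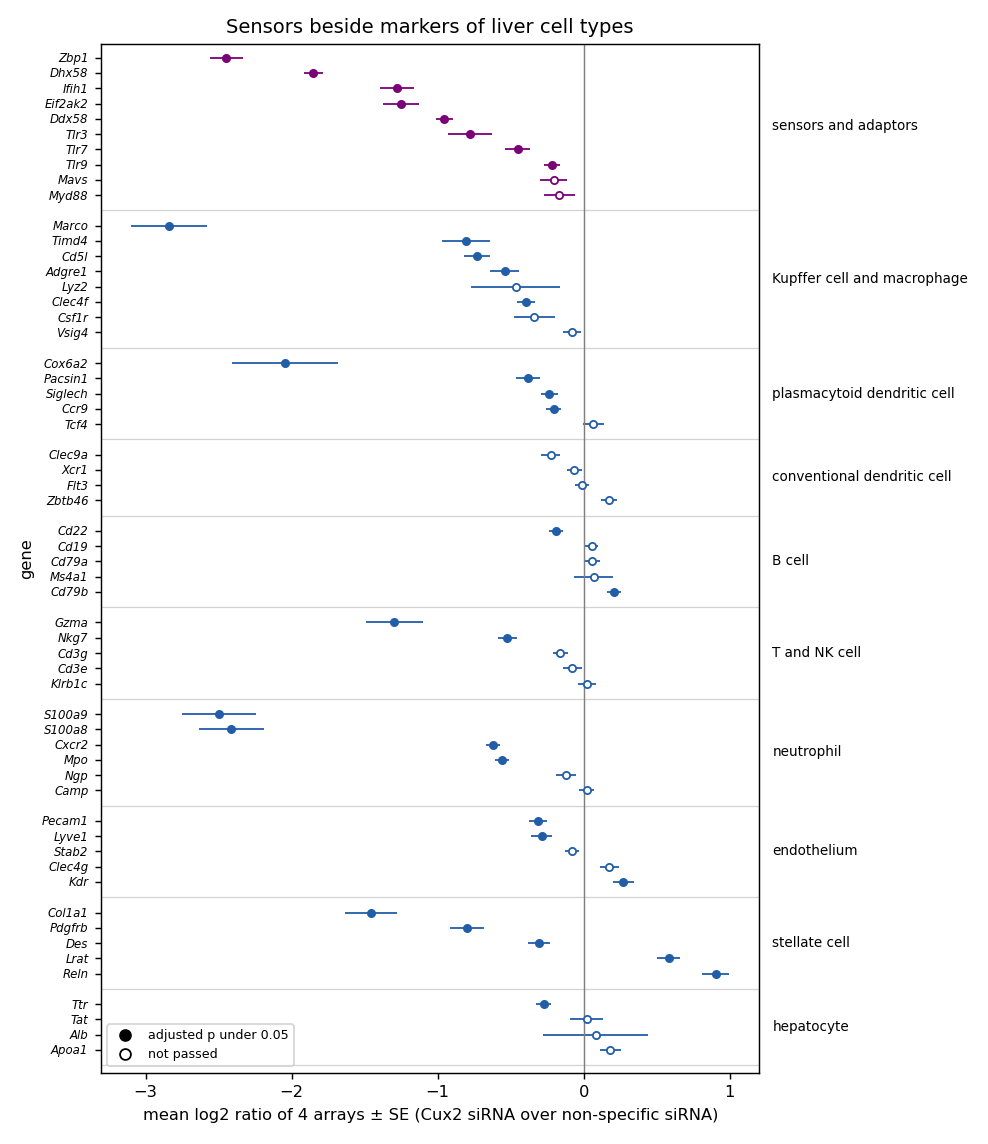
Mean log2 ratio of the 4 arrays with its SE (horizontal axis, Cux2 siRNA over non-specific siRNA) for the 10 sensors and adaptors and for markers of 9 liver cell types; filled points passed at an adjusted p under 0.05. Marco, Cox6a2, S100a8 and S100a9 lie below -2, beside Zbp1, whereas the conventional dendritic cell, B cell and hepatocyte markers lie within 0.3 of 0.

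For each of the 8 genes that passed, the closest profiles were sought among the other 14062 named genes by the distance between the 4 ratios (the square root of the summed squared differences, in log2 units). Zbp1 lay closest to Tap1 (0.24), a peptide transporter, and Rnf213 (0.27), a ubiquitin ligase. Dhx58 lay closest to Psmb8 (0.16), an immunoproteasome subunit, and Il18bp (0.31), which neutralises interleukin-18. Ddx58 lay closest to Dyrk3 (0.046) and Cenpj (0.062), Eif2ak2 to Aurkb (0.16) and Ccl19 (0.19), and Ifih1 to 1810055G02Rik (0.29) and Depp1 (0.32). Tlr3 lay closest to Ctsl (0.11) and Ethe1 (0.14), Tlr7 to Clmp (0.10) and Mul1 (0.11), and Tlr9 to Gorasp2 (0.052) and Gnl1 (0.054). These are likenesses over 4 arrays only.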

How the data were processed

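Liver RNA of 4 treated pools was hybridised on 4 Agilent 2-colour mouse arrays against control pools, after Trizol extraction and 1 round of amplification, per the labels' protocols. Scanning software was Agilent Feature Extraction 10.7.1.1 according to the file headers. From the deposited scanner files the median intensity of each spot and that of its surrounding background were taken. The same files' processed intensity values, background-subtracted and dye-normalized before the authors deposited them, per the file headers, gave an alternative. The authors' value table holds log10 ratios with a median of 0 in each column; within 1e-05 they equalled the scanner's log10 ratio turned to treated over control for all 45018 features. The dyes in the labels set the direction of every ratio.

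The normexp correction of limma 3.58.1 (R 4.3.3; offset 50) was followed by loess normalization within arrays, in which the 1639 control spots had no weight. Between 99 and 204 spots per array with an outlier mark were left out. A probe was kept when well above background in at least 2 of 8 channel readings (31765 of 41174), and the brightest kept probe stood for a gene. Of all probes 23374 (56.8%) were named through RefSeq accessions of GRCm38.p6. The array design names another build, so only the promoters carry coordinates. One fit to the 4 arrays, with 2 residual and 2.78 prior degrees of freedom, gave all tests, and 13 alternatives were run. Precision is limited by the number of arrays.

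The 10 genes and the lists of 53 pathway genes and 51 markers were chosen with earlier results of these data known. Of the lists 96 genes were tested; Sting1, Ifnl2, Cd68, Cd8a and Cps1 matched no probe by accession, and Ifnb1, Ifna4 and Elane did not pass the filter. Genes named are the 10, Cux2, the 3 largest rises and falls of each pathway list past the threshold with 1 direction on all 4 arrays, the 2 largest changes of each marker list with a gene past it, and the 2 genes nearest to each sensor that passed. Alb, Tat, Ripk1, Ripk3, Ago2, Ifna2, Ifnl3 and Kdr were named outside this rule.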

Additional observations from a re-analysis of the deposited data

How the results depend on the processing

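Under the 13 alternatives every mean ratio of Zbp1, Dhx58, Ifih1, Eif2ak2, Ddx58, Tlr3, Tlr7 and Tlr9 stayed below 0, on each day and over both, and Zbp1 and Dhx58 passed over both days in all. Leaving out 1 array gave 2 to 6 sensors called at day 8, 3 to 5 at day 5, 5 to 7 over both days and 0 for the difference between days, and 18 to 20 pathway genes, against 5, 6, 8, 0 and 24 with all arrays; such a fit leaves 1 array on a day, which is assumed to vary like the others. All genes called also fell in number on each day and over both days when an array was left out. Without background subtraction 3 passed at day 8, 3 at day 5 and 6 over both days, where Tlr3 (adjusted p = 0.0781) and Tlr9 (0.0529) lost their calls. All genes called were then 2109, 2882 and 6202 in that order, against 3597, 4218 and 7798 in the main fit. With the scanner's processed signals, as with the authors' deposited ratios, 4 passed at day 8, 4 at day 5 and 7 over both days. All genes called with the processed signals were 1476, 2011 and 6655 in that order. The calls lost with the processed signals were Eif2ak2 at day 8 (0.0518), Ifih1 (0.0515) and Tlr7 (0.0869) at day 5 and Tlr9 over both days (0.135), and the same calls were lost with the deposited ratios. With median centring 0 passed on either day by limma (5 at an unadjusted p under 0.05 on each), 2 over both days and 3 pathway genes. All genes called were then 3 at day 8, 5 at day 5 and 269 over both days, in place of 3597, 4218 and 7798. The cause was not tested. Of the unpassed adaptors, with 1 array left out, Myd88 at day 8 ranged from -0.45 to 0.024 and Mavs from -0.28 to 0.055, both above 0 without day 8 replicate 2. Myd88 at day 5 ranged from -0.29 to 0.054, above 0 when day 5 replicate 2 was left out. A fit with a replicate block, which is also a block for dye orientation, called 7 sensors at day 8, 8 at day 5, 10 over both days and 0 for the difference, and 27 pathway genes. Mavs (adjusted p = 0.0159) and Myd88 (0.0342) passed over both days in that fit alone, and all genes called over both days were 11255, so the gain was shared by genes at large. The same-numbered arrays deviated together from their day's mean (r = 0.50 across 25091 genes), and with 2 pairs this does not settle whether the numbers pair the samples.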

Other observations

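After the average intensities of the 4 arrays had been set to a common distribution, a step chosen after seeing the data, each channel was compared between the replicates of a day. In the Cux2 siRNA channel the level in replicate 2 minus that in replicate 1, on the log2 scale, was 0.30 at day 8 and 0.31 at day 5 for Zbp1, 0.14 and 0.037 for Tlr3, -0.042 and 0.13 for Myd88 and 0.89 and 0.12 for Eif2ak2. In the non-specific siRNA channel it was 0.79 and 0.72 for Zbp1, 0.75 and 0.67 for Tlr3, 0.43 and 0.48 for Myd88 and 1.24 and 0.75 for Eif2ak2. The other genes did not share one direction. In the Cux2 siRNA channel the difference was -0.61 and -0.64 for Tlr7, -1.25 and 0.43 for Dhx58, 0.12 and 0.15 for Ddx58, 0.12 and -0.29 for Mavs, -0.13 and 0.60 for Ifih1 and -0.17 and 0.075 for Tlr9. In the non-specific siRNA channel it was -0.41 and -0.25 for Tlr7, -1.10 and 0.17 for Dhx58, 0.33 and 0.21 for Ddx58, 0.46 and 0.082 for Mavs, -0.037 and -0.062 for Ifih1 and -0.0064 and -0.036 for Tlr9, while the median over all genes in the control channel was 0.028 and -0.0040. The dye was exchanged between replicates and the control pool of each array is not stated, so dye and pool cannot be told apart.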
